A study of Mus musculus with 6 samples.

Results

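The genes described here are 36 genes of cholesterol and fatty acid synthesis, chosen by name: enzymes of the mevalonate and sterol pathways, the SREBP system that governs them, genes of sterol transport and receptor turnover, and enzymes of fatty acid synthesis and desaturation. They were chosen with earlier results of these data known. The shares of them called below therefore describe the list and are not an independent test of it. A gene was followed through the array probe sets annotated to it alone, and 35 of the 36 genes had such a probe set, 78 probe sets in all among 45037 (for 18193 genes). Acat2 had none of its own and is not analysed here. All 35 genes had a probe set bright enough to be tested, among 10892 tested genes, and 70 of the 78 probe sets were tested.

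Cells make cholesterol from acetyl-CoA by way of mevalonate, isoprenyl diphosphates, squalene and lanosterol, and make fatty acids from the same precursor through malonyl-CoA. The transcription factors SREBP1 and SREBP2, encoded by Srebf1 and Srebf2, sit as precursors in the endoplasmic reticulum, held there with Scap by the Insig proteins while sterol is plentiful. When sterol falls they travel to the Golgi, are cut by proteases, and switch on the genes of both pathways, many of which therefore tend to move together.

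The arrays read As4.1 cells, a renin-expressing mouse line established from a kidney tumour of a mouse carrying a viral T antigen under a renin gene promoter, so that all groups are one transformed line. The cells received vehicle, hydrogen peroxide, an oxidant, or an interleukin, an immune signalling protein that the labels do not specify further; doses and times are not in the labels. Every group had 2 separate cultures, each read on 1 Affymetrix Mouse Genome 430 2.0 array, so there are 6 arrays in 3 groups. No other agent or allele is named for any group, and renin itself is not analysed here.

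Values are MAS5 signals, linear brightness values that share a trimmed mean of 1500.01 on all arrays. Array medians were 192.2 to 232.3, and correlations were 0.981 to 0.987 within groups and 0.9535 to 0.9753 between them. The 3'/5' ratio of the beta-actin control, which rises as RNA or labelling gets less complete, was 1.22 and 1.26 with vehicle, 1.35 and 1.32 with hydrogen peroxide, and 1.46 and 1.55 with interleukin. For the Tfrc control it was 1.85 and 2.14, 3.54 and 2.30, and 3.05 and 3.95, and for the Pcx control 1.66 and 1.59, 2.89 and 2.03, and 2.30 and 2.46. For the Gapdh control the ratio was 0.825 and 0.836 with vehicle, 0.844 and 0.836 with hydrogen peroxide, and 0.847 and 0.873 with interleukin. The ratios of beta-actin, Tfrc and Pcx were higher on every treated array than on both vehicle arrays, that of Gapdh on all but hydrogen peroxide array 2, and their part in the results below was not tested. Differences are log2 changes from limma ± SE (n = 2 arrays per group), and a gene is said to have risen, fallen or passed where its p, adjusted over all tested probe sets, was under 0.05. So small a number of arrays limits the precision. Fewer cells of a kind and less RNA per cell cannot be told apart in such bulk samples.

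Under hydrogen peroxide these genes were lower as a body. Against vehicle 17 of the 35 genes fell (48.6%) and 0 rose, beside 2.91% of all tested genes that fell and 4.08% that rose, 317 and 444 genes, or 431 and 390 when arrays were centred on their 75th percentile (limma; at an unadjusted p under 0.05, 26 of the 35 were lower and 2 higher). Both hydrogen peroxide arrays lay below both vehicle arrays for 27 of the 35, above them for 2 and overlapped with them for 6, whereas 23.0% of all tested genes lay wholly below and 36.5% wholly above. The median log2 change of the 35 genes was -0.46, a decrease by 27.3%, and that of all tested genes was 0.06. Single genes ranged from -0.89 (Elovl6) to 0.44 (Lpin1). The genes are bright, with 34 of the 35 at a geometric mean signal of at least 1514, and among the 6810 tested genes at or above that level 4.14% fell.

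The fall was called from few arrays and depended on the variance model. Fewer of these genes were called as fallen when any 1 of the vehicle or hydrogen peroxide arrays was left out. The number with a negative change was 28 to 33 of the 35 over the settings tried, not always the same genes. In no setting did any of them rise. With a variance model that has no trend on signal, limma called 0 of the 35 in this comparison (21 lower and 0 higher at an unadjusted p under 0.05), beside 34 of all tested genes.

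Under interleukin most of the genes did not pass. Against vehicle 6 of the 35 rose (Mvd, Nsdhl, Insig2, Mylip, Fads1 and Fads2) and 1 fell (Idi1), 17.1% and 2.86%, where 9.78% of all tested genes rose and 6.61% fell. Their median log2 change was 0.01, beside 0.03 for all tested genes, and the range was -0.43 to 0.78. Both interleukin arrays lay above both vehicle arrays for 14 of the 35 and below them for 9, beside 32.7% and 26.0% of all tested genes. These calls depended on single arrays. Without vehicle array 1, and also without interleukin array 1, all of these genes but Fads1 lost their call. Without vehicle array 2 Idi1, Nsdhl, Insig2 and Fads2 lost theirs. The changes of the called genes then ranged from -0.28 to 0.75 without vehicle array 1 and from -0.38 to 0.85 without vehicle array 2. Without interleukin array 1 they ranged from -0.30 to 0.70. Without the trend on signal 1 gene was called, Fads1.

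The difference between the treatments was tested directly. With interleukin 19 of the 35 genes were higher than with hydrogen peroxide (54.3%) and 0 were lower, beside 6.30% and 4.06% of all tested genes. The median was 0.45 over the 35 genes and -0.04 over all tested genes, and 33 of the 35 values were positive. The arrays of the treatments overlapped for 4 of the 35 genes, and those of interleukin lay wholly above for 30 and wholly below for 1 (Scap), beside 24.0% and 31.4% of all tested genes. The count was 10 without hydrogen peroxide array 2 and 4 without the trend on signal (Nsdhl, Fads2, Hsd17b7 and Tm7sf2). The 3 comparisons share arrays, those of vehicle in the first pair and those of each treatment in the third, so they are not independent of each other.

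**Figure D1:**
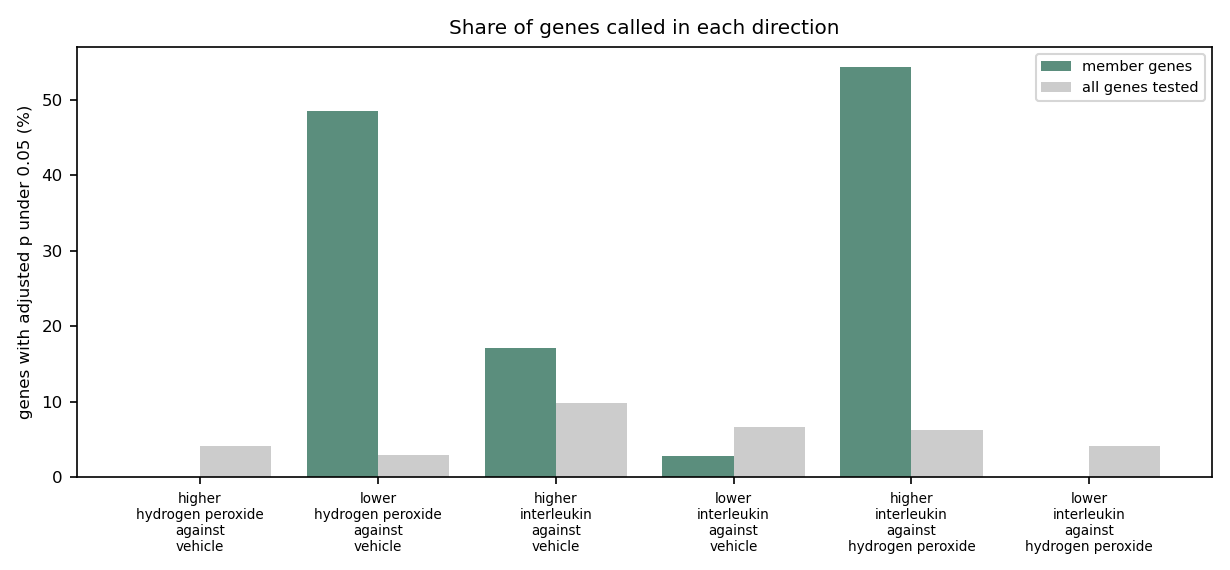
Bars give the percentage of genes called at an adjusted p under 0.05 in each direction and comparison, for the 35 genes of cholesterol and fatty acid synthesis and for the 10892 genes tested. The tallest bars of these genes are those lower under hydrogen peroxide than with vehicle (48.6%) and those higher with interleukin than with hydrogen peroxide (54.3%).

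The upstream sequence of 5 of these genes is shown because they carry the main patterns: Hmgcs1, Cyp51 and Insig1 fell under hydrogen peroxide and did not pass under interleukin, and Nsdhl and Fads2 fell under hydrogen peroxide and rose under interleukin. Each is the 250 bases before the annotated start, 5′ to 3′ on the gene's strand, from RefSeq (GRCm38.p6). Capitals mark TCACNCCAC, the letters of a sterol regulatory element to which SREBPs bind, and CCAAT, the letters bound by NF-Y, a frequent partner of SREBPs, on either strand, so that CCAAT on the other strand reads ATTGG.
Hmgcs1, chr13:119690101-119690350, plus strand: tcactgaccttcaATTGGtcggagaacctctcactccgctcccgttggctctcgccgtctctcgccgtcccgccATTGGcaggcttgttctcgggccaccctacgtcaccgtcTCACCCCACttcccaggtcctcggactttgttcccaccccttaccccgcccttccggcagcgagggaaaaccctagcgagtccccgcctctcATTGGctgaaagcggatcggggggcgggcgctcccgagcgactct
Cyp51, chr5:4104698-4104947, minus strand: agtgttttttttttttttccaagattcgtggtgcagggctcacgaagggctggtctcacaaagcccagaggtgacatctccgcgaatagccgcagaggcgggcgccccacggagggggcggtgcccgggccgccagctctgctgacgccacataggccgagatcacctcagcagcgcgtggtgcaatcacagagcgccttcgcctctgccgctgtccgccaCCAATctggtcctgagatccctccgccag
Insig1, chr5:28071162-28071411, plus strand: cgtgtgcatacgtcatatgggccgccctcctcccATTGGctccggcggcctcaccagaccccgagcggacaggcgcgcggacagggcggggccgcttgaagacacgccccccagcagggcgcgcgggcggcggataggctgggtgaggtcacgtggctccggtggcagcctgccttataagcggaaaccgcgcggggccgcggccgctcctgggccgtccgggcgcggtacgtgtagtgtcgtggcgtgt
Nsdhl, chrX:72918271-72918520, plus strand: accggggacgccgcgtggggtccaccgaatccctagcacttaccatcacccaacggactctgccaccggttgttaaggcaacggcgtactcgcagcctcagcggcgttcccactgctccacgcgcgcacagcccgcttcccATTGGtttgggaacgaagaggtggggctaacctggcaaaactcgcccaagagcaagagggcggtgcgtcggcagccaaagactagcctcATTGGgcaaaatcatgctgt
Fads2, chr19:10101504-10101753, minus strand: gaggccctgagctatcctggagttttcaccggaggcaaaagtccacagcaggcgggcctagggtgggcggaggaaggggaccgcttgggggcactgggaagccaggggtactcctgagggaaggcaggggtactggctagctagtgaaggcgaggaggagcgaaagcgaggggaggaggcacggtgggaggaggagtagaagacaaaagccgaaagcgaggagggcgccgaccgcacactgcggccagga

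A gene with several windows was counted if any of them held the letters, and at least 1 window was at hand for 28 of the 36 genes. TCACNCCAC was found in 1 of them, Hmgcs1, where it begins at position -137 from the start, and in 1.22% of the 27025 genes with a window. Other forms of a sterol regulatory element were not searched for, so a window without TCACNCCAC is not shown to lack one. CCAAT was found in 21 of the 28 (75%) and in 37.5% of all genes, and GGGCGG, the letters bound by Sp1, in 23 of the 28 (82.1%) and in 35.4%. Both strands were searched for each motif, GGGCGG is not capitalised, and a match is a description of letters and not a binding site. Among the 12 of these genes that fell under hydrogen peroxide 10 held CCAAT (83.3%). Among the other 16, which include Acat2 although it has no probe set of its own, it was 11 (68.8%).

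**Figure D2:**
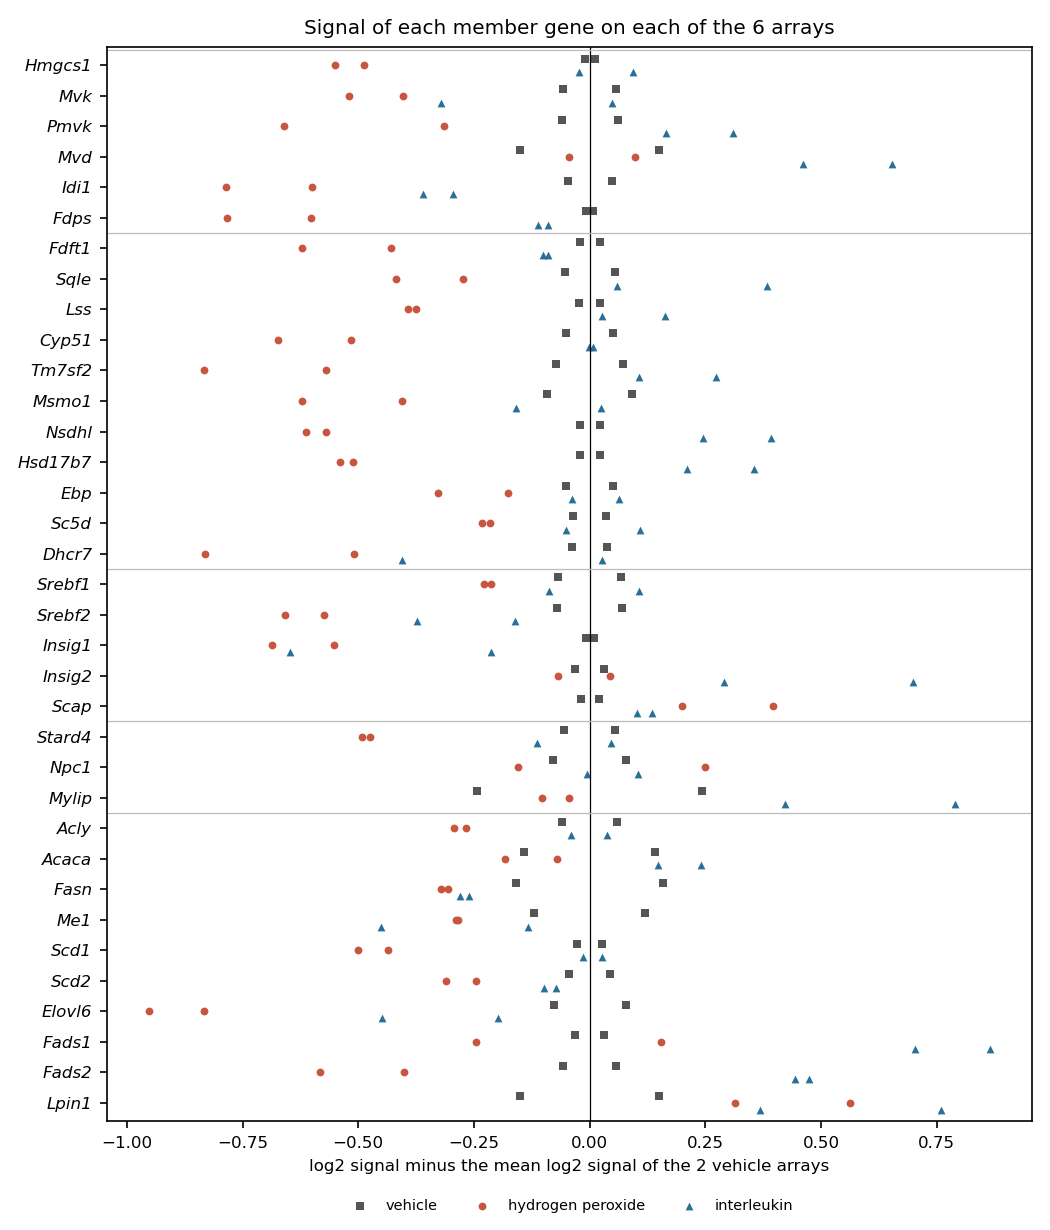
Each point is 1 array, plotted as the log2 signal of a gene minus the mean log2 signal of the 2 vehicle arrays for that gene, with lines between the groups of genes by role. The 2 hydrogen peroxide points lie to the left of both vehicle points for 27 of the 35 genes, while interleukin points lie on both sides.

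Of the 6 mevalonate enzymes tested, 3 fell under hydrogen peroxide, none rose, and the group's median log2 change was -0.50. Fdps, which makes farnesyl diphosphate, the last intermediate shared by sterols and prenylated proteins, gave signals of 44726 and 45180.3 with vehicle, 29621 and 26115 with hydrogen peroxide, and 41611 and 42259.6 with interleukin. The hydrogen peroxide arrays were well below the other 4, and Fdps fell by 38.1% (log2 -0.69 ± 0.08, adjusted p = 0.0013). Idi1, the isomerase of isopentenyl diphosphate, had 27845 and 26058 with vehicle, 17779 and 15634 with hydrogen peroxide, and 20988 and 21938 with interleukin. It was lowest with hydrogen peroxide (-0.69 ± 0.09, adjusted p = 0.00236), intermediate with interleukin (-0.33 ± 0.09, adjusted p = 0.0298) and highest with vehicle, with no overlap between groups. Hmgcs1 makes HMG-CoA, the substrate of the reductase that sets the pathway's pace, and its signals were 33819 and 34339 with vehicle, 24289 and 23289 with hydrogen peroxide, and 36354 and 33559.7 with interleukin. Only the hydrogen peroxide arrays stood apart among its 6, with a change of -0.52 ± 0.07 (adjusted p = 0.00434) against vehicle and 0.55 ± 0.07 (adjusted p = 0.00112) between the treatments.

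The remaining mevalonate enzymes did not pass under hydrogen peroxide. Pmvk, the phosphomevalonate kinase, had signals of 5742 and 6242 with vehicle, 4811 and 3786 with hydrogen peroxide, and 6709 and 7417 with interleukin, a change of -0.49 ± 0.13 (adjusted p = 0.0555) under hydrogen peroxide. Its interleukin arrays were the brightest, and interleukin exceeded hydrogen peroxide by 0.72 ± 0.13 (adjusted p = 0.00655). Mvk, the mevalonate kinase, was also lower on both hydrogen peroxide arrays (-0.46 ± 0.14, adjusted p = 0.0912) and passed in no comparison. Mvd, which decarboxylates mevalonate diphosphate, did not follow them, at 1883 and 2318 with vehicle, 2236 and 2025 with hydrogen peroxide, and 3286 and 2874 with interleukin. Its hydrogen peroxide arrays lay within the vehicle range, and it rose under interleukin by 0.56 ± 0.15 (adjusted p = 0.0276). The difference of Mvd between the treatments was 0.53 ± 0.15 (adjusted p = 0.0503) and did not pass. Without vehicle array 2 the fall of Hmgcs1 had adjusted p = 0.0542, while those of Fdps and Idi1 passed without any 1 array. Under interleukin neither Idi1 nor Mvd passed without vehicle array 1 (adjusted p = 0.205 to 0.223) or without interleukin array 1 (0.107 to 0.125), and Idi1 did not pass without vehicle array 2 (0.0952) or interleukin array 2 (0.0553). Between the treatments Idi1 and Pmvk did not pass without hydrogen peroxide array 2 (0.0642 to 0.227), and Idi1 did not pass without either vehicle array (0.0553 to 0.0556), interleukin array 1 (0.0516) or interleukin array 2 (0.111).

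The enzymes from squalene to cholesterol were lower throughout. All 11 tested had both hydrogen peroxide arrays below both vehicle arrays, 7 fell, and their median was -0.53. Fdft1, squalene synthase, commits farnesyl diphosphate to sterols and had 16898 and 16401 with vehicle, 12368 and 10818 with hydrogen peroxide, and 15647 and 15522 with interleukin. Its interleukin arrays lay just below vehicle (-0.10 ± 0.09, adjusted p = 0.528) and its hydrogen peroxide arrays far below (-0.53 ± 0.09, adjusted p = 0.0099). Cyp51, the lanosterol 14-alpha demethylase, had 15400.2 and 14360.2 with vehicle, 10396 and 9322 with hydrogen peroxide, and 14849 and 14936 with interleukin. Vehicle and interleukin arrays of Cyp51 overlapped, and hydrogen peroxide left it lower: it fell by 33.8% (-0.60 ± 0.09, adjusted p = 0.00584).

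The enzymes that strip the C4 methyl groups and shift bonds of the sterol ring followed. Nsdhl, a dehydrogenase of that step, had 11956 and 12318 with vehicle, 8183 and 7937 with hydrogen peroxide, and 15933 and 14380.5 with interleukin. The groups were ordered hydrogen peroxide, vehicle, interleukin with no overlap, and every step passed: Nsdhl fell under hydrogen peroxide (-0.59 ± 0.09, adjusted p = 0.00591), rose under interleukin (0.32 ± 0.09, adjusted p = 0.0386) and differed between them by 0.91 ± 0.09 (adjusted p = 0.000152). Hsd17b7, the 3-ketosteroid reductase of the same step, had 3478 and 3585 with vehicle, 2476 and 2429 with hydrogen peroxide, and 4515 and 4083 with interleukin. It showed the same order, with a change of -0.53 under hydrogen peroxide (adjusted p = 0.0273) and a difference of 0.81 ± 0.12 (adjusted p = 0.0017) between the treatments, while 0.28 ± 0.12 under interleukin did not pass. Msmo1, the methyl sterol oxidase that opens this step, had 25829.9 and 22752 with vehicle, 18314 and 15760.2 with hydrogen peroxide, and 24669 and 21711 with interleukin. Vehicle and interleukin overlapped, and Msmo1 fell under hydrogen peroxide (-0.51 ± 0.10, adjusted p = 0.0202). Tm7sf2, a sterol 14-reductase, fell most in this group, at 2006 and 2218 with vehicle, 1422 and 1185 with hydrogen peroxide, and 2269.9 and 2549 with interleukin and a change of -0.70 ± 0.15 (adjusted p = 0.0236). Its interleukin arrays exceeded those of hydrogen peroxide by 0.89 ± 0.15 (adjusted p = 0.00436). Dhcr7, which makes cholesterol from 7-dehydrocholesterol, had 3742 and 3548 with vehicle, 2559 and 2047 with hydrogen peroxide, and 3714 and 2752 with interleukin. The interleukin arrays spread widely, and only the fall under hydrogen peroxide passed (-0.67 ± 0.16, adjusted p = 0.0418).

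Squalene epoxidase, Sqle, an oxygen-dependent step at which the pathway can be held, had 27044 and 29145 with vehicle, 23220.2 and 21001 with hydrogen peroxide, and 29269 and 36611 with interleukin. Lanosterol synthase, Lss, had 6521 and 6734 with vehicle, 5045 and 5109.8 with hydrogen peroxide, and 7419.5 and 6754 with interleukin. Both were lower on the hydrogen peroxide arrays without passing (-0.35 ± 0.11, adjusted p = 0.0875 and -0.38 ± 0.10, adjusted p = 0.0534), and both were higher with interleukin than with hydrogen peroxide (0.57 ± 0.11, adjusted p = 0.00844 and 0.48 ± 0.10, adjusted p = 0.0149). The isomerase Ebp and the desaturase Sc5d moved least, at -0.25 ± 0.10 and -0.22 ± 0.10 under hydrogen peroxide, and passed in no comparison. Between the treatments 8 of the 11 enzymes were higher with interleukin and the median difference was 0.48, and against vehicle only Nsdhl passed under interleukin. Of the 7 falls under hydrogen peroxide, 0 passed without vehicle array 1 (adjusted p = 0.0561 to 0.206) and 1, Cyp51, without vehicle array 2 (0.0649 to 0.194 for the rest), although their changes stayed between -0.77 and -0.42 in the first case and -0.71 and -0.50 in the second. Hsd17b7 and Dhcr7 did not pass without hydrogen peroxide array 1 (0.0650 to 0.119), nor did they, Msmo1 and Tm7sf2 without hydrogen peroxide array 2 (0.105 to 0.182). The rise of Nsdhl under interleukin lost its call without vehicle array 1 (adjusted p = 0.206) or 2 (0.152), without either hydrogen peroxide array (0.0534 each) and without interleukin array 1 (0.148). Of the 8 differences between the treatments, Sqle, Msmo1 and Lss did not pass without hydrogen peroxide array 2 (0.0774 to 0.195), Lss without hydrogen peroxide array 1 (0.0682), Msmo1 and Lss without interleukin array 1 (0.0538 to 0.108) and Fdft1 without interleukin array 2 (0.0515).

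**Figure D3:**
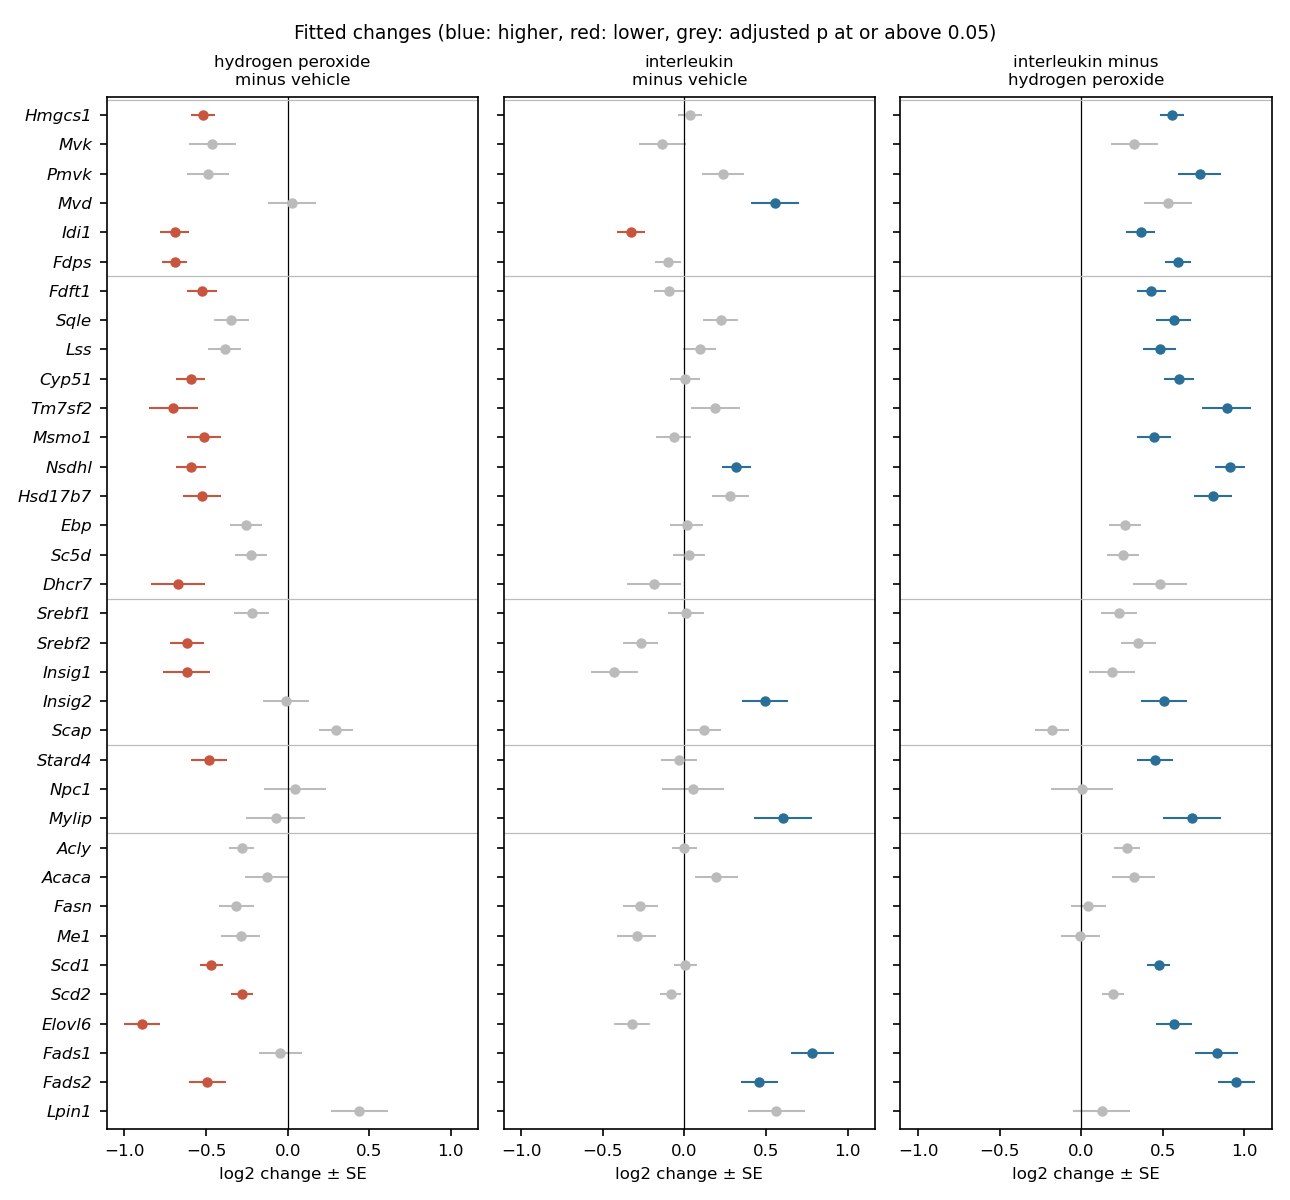
Points are fitted log2 changes with bars of 1 standard error for each gene in the 3 comparisons, coloured where the adjusted p was under 0.05. Under hydrogen peroxide 17 genes are marked as lower and none as higher, under interleukin 6 as higher and 1 as lower, and between the treatments 19 as higher with interleukin.

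In the SREBP system itself, 2 of 5 genes fell under hydrogen peroxide. Srebf2, which encodes the factor that mainly drives the sterol genes, had 10279 and 11332 with vehicle, 7247 and 6834 with hydrogen peroxide, and 8334 and 9648 with interleukin. Every treated array lay below both vehicle arrays, and Srebf2 fell by 34.8% under hydrogen peroxide (-0.62 ± 0.11, adjusted p = 0.00974) but did not pass under interleukin (-0.27 ± 0.11, adjusted p = 0.119). Insig1, which retains the SREBP precursors in the endoplasmic reticulum and is itself an SREBP target, had 5836 and 5769.5 with vehicle, 3607 and 3957 with hydrogen peroxide, and 5003 and 3707 with interleukin. Its interleukin arrays were spread, 1 of them within the hydrogen peroxide range, and only the fall under hydrogen peroxide passed (-0.62 ± 0.14, adjusted p = 0.0332, beside -0.43 ± 0.14, adjusted p = 0.067 under interleukin). Insig2, a second retention protein, had 3878 and 4052 with vehicle, 3783 and 4088 with hydrogen peroxide, and 6438 and 4846 with interleukin. It lay at vehicle level with hydrogen peroxide (-0.01 ± 0.14) and rose under interleukin (0.49 ± 0.14, adjusted p = 0.0371).

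Scap, the escort of the SREBPs, was the one gene of the system with both hydrogen peroxide arrays above vehicle, at 5905 and 6066 with vehicle, 7873 and 6877 with hydrogen peroxide, and 6572 and 6420.5 with interleukin, and did not pass (0.30 ± 0.10, adjusted p = 0.125). Srebf1, whose products mainly drive fatty acid genes, had 6218 and 6835 with vehicle, 5565 and 5626 with hydrogen peroxide, and 6136 and 7024 with interleukin and a change of -0.22 ± 0.11 under hydrogen peroxide that did not pass. Neither fall in the system passed without vehicle array 1 (adjusted p = 0.107 to 0.168), without vehicle array 2 (0.176 to 0.382) or without hydrogen peroxide array 2 (0.0563 to 0.0742), and Insig1 did not without hydrogen peroxide array 1 (0.173). Leaving out an array can change which probe set of a gene is brightest: for Srebf2 the other probe set changed by -0.39 under hydrogen peroxide. The rise of Insig2 did not pass without vehicle array 1 (0.185), vehicle array 2 (0.134) or interleukin array 1 (0.178), and its difference between the treatments passed only without interleukin array 2 when 1 array was left out (0.0853 to 0.181 for the other 5).

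Of the 3 genes of sterol transport and receptor turnover, 1 fell under hydrogen peroxide and 1 rose under interleukin. Stard4, a carrier that moves cholesterol between membranes, had 5356 and 5784 with vehicle, 4004 and 3960.3 with hydrogen peroxide, and 5748 and 5142 with interleukin. It fell with hydrogen peroxide (-0.48 ± 0.11, adjusted p = 0.0314) and overlapped with vehicle under interleukin. Mylip, a ubiquitin ligase that marks lipoprotein receptors for degradation and is a target of LXR rather than of the SREBPs, had 1926 and 2699 with vehicle, 2123 and 2210.4 with hydrogen peroxide, and 3938 and 3054 with interleukin. Its interleukin arrays were the highest, a rise of 0.61 ± 0.18 (adjusted p = 0.0434) against vehicle and 0.68 ± 0.18 (adjusted p = 0.0407) against hydrogen peroxide. Npc1, which exports cholesterol from lysosomes, was at 847 and 945 with vehicle, 804 and 1063 with hydrogen peroxide, and 962 and 891 with interleukin, and its groups overlapped throughout. Without vehicle array 1, vehicle array 2, hydrogen peroxide array 1 or hydrogen peroxide array 2 the fall of Stard4 had adjusted p = 0.123, 0.238, 0.135 and 0.113. The rise of Mylip did not pass when vehicle array 1 was left out (adjusted p = 0.315), nor did it when others were: 0.0524 and 0.0526 without hydrogen peroxide arrays 1 and 2, and 0.217 without interleukin array 1, with a log2 change between 0.36 and 0.85. Between the treatments Stard4 and Mylip did not pass without hydrogen peroxide array 1 (0.0959 to 0.126), hydrogen peroxide array 2 (0.144 to 0.155) or interleukin array 1 (0.0970 to 0.171), and Stard4 did not without either vehicle array (0.0605 to 0.0613).

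Among the 10 fatty acid genes 4 fell under hydrogen peroxide, the elongase gene Elovl6 and the desaturase genes Scd1, Scd2 and Fads2, and the median of the 10 was -0.28. Elovl6, which lengthens palmitate to stearate, showed the largest fall of all 35 genes, at 12309 and 13714 with vehicle, 7288 and 6715 with hydrogen peroxide, and 9521 and 11328 with interleukin. Its groups did not overlap, and it fell by 46.2% under hydrogen peroxide (-0.89 ± 0.11, adjusted p = 0.00219), beside -0.32 ± 0.11 (adjusted p = 0.0757) under interleukin. Scd1, the stearoyl-CoA desaturase that makes oleate, had 37014 and 38386 with vehicle, 27888 and 26625 with hydrogen peroxide, and 38424 and 37295 with interleukin. Only the hydrogen peroxide arrays stood apart (-0.47 ± 0.07, adjusted p = 0.00552, and 0.47 ± 0.07, adjusted p = 0.00223 between the treatments). Scd2, a second stearoyl-CoA desaturase, had 61456 and 65412 with vehicle, 51095 and 53469 with hydrogen peroxide, and 59236 and 60286 with interleukin. Its fall with hydrogen peroxide was the smallest that passed (-0.28 ± 0.07, adjusted p = 0.0361).

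Both desaturases of polyunsaturated fatty acids rose under interleukin by their brightest probe sets. Fads1, which acts at the end of that route and showed the largest rise of the 35 genes, had 6604 and 6899 with vehicle, 7516 and 5691 with hydrogen peroxide, and 12293 and 10991 with interleukin. Both interleukin arrays were far above the other 4, a rise by 72.2% (0.78 ± 0.13, adjusted p = 0.00291), and its hydrogen peroxide arrays lay on either side of vehicle. Fads2, which takes its first step, had 4571 and 4221 with vehicle, 3326 and 2932 with hydrogen peroxide, and 5973 and 6099 with interleukin. It was lowest with hydrogen peroxide (-0.49 ± 0.11, adjusted p = 0.0343), higher with vehicle and highest with interleukin (0.46 ± 0.11, adjusted p = 0.0215), and its difference between the treatments was the largest among the 35 genes, at 0.95 ± 0.11 (adjusted p = 0.000531).

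The enzymes that feed and run palmitate synthesis did not pass against vehicle by their brightest probe sets, although the changes of Acly, Fasn and Me1 under hydrogen peroxide were about as large as that of Scd2, which did. Acly, which makes cytosolic acetyl-CoA from citrate, had 26894 and 29196 with vehicle, 23268 and 22863 with hydrogen peroxide, and 27264 and 28774 with interleukin and a change of -0.28 ± 0.08 (adjusted p = 0.063) under hydrogen peroxide. Fasn, the fatty acid synthase, had 12866 and 16042 with vehicle, 11496 and 11619 with hydrogen peroxide, and 11984 and 11827 with interleukin. Both vehicle arrays of Fasn lay above every treated array, vehicle array 2 the furthest. Neither -0.31 ± 0.11 under hydrogen peroxide nor -0.27 ± 0.11 under interleukin passed. Me1, a source of NADPH, was at -0.29 ± 0.12 and -0.29 ± 0.12, and Acaca, which makes malonyl-CoA, at -0.13 ± 0.13 and 0.19 ± 0.13. Lpin1, a phosphatidate phosphatase, had the highest change of the 35 under hydrogen peroxide, at 1769 and 1438 with vehicle, 1982 and 2356 with hydrogen peroxide, and 2701 and 2058 with interleukin. Every treated array of Lpin1 lay above vehicle, and neither 0.44 ± 0.17 (adjusted p = 0.171) under hydrogen peroxide nor 0.56 ± 0.17 (adjusted p = 0.0521) under interleukin passed. The fall of Elovl6 passed without any 1 array. Those of Scd1, Scd2 and Fads2 did not pass without vehicle array 1 (adjusted p = 0.0504 to 0.213) or vehicle array 2 (0.0691 to 0.275), and those of Scd2 and Fads2 did not without hydrogen peroxide array 1 (0.0778 to 0.195) or array 2 (0.0830 to 0.159). The rise of Fads1 passed without any 1 array, and that of Fads2 did not without vehicle array 1 (0.0810), vehicle array 2 (0.166), interleukin array 1 (0.0570) or interleukin array 2 (0.0652). Between the treatments Elovl6 did not pass without hydrogen peroxide array 2 (0.0880) or interleukin array 2 (0.0579), while Scd1, Fads1 and Fads2 did without any 1 array.

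Several genes are read by more than 1 probe set, and 22 of the 35 had more than 1 tested. Under hydrogen peroxide 12 of the 17 fallen genes had another tested probe set, 22 in all, of which 21 pointed the same way and 9 passed, in 6 genes. The exception was a dim probe set of Msmo1 (251 and 134 with vehicle, 159.9 and 351 with hydrogen peroxide, and 349 and 271 with interleukin), at 0.37 ± 0.46. Between the treatments all 23 other probe sets of the called genes pointed the same way and 10 passed. Under interleukin the probe sets of a gene were not always alike: 5 of the 7 other probe sets of called genes pointed the same way, and 6 genes that did not pass by their brightest probe set had another that did.

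The genes with such a probe set were Scd2, Acaca, Stard4, Acly, Lss and Lpin1. For Scd2 the brightest probe set did not pass (-0.09 ± 0.07), while the dimmest of its 3 tested, at 17045 and 18727 with vehicle, 6290.4 and 10052 with hydrogen peroxide, and 8426 and 5853 with interleukin, fell under both interleukin (-1.35 ± 0.21, adjusted p = 0.00183) and hydrogen peroxide (-1.17 ± 0.21, adjusted p = 0.0112), and the third also fell in both (-0.41 and -0.58). For Acaca the dimmer probe set went from 783 and 1013 with vehicle to 369 and 193 with interleukin (-1.74 ± 0.37, adjusted p = 0.0104), against 0.19 ± 0.13 for the brightest. Stard4 had a probe set that fell under interleukin (-0.49 ± 0.12, adjusted p = 0.0162), and so did Acly (-0.40 ± 0.09, adjusted p = 0.0158), which with the same probe set also fell under hydrogen peroxide (-0.50 ± 0.09, adjusted p = 0.0145). Lss and Lpin1 each had one that rose (0.49 ± 0.12, adjusted p = 0.0211 and 0.64 ± 0.19, adjusted p = 0.0473). Which part of each transcript these probe sets read was not analysed here. The calls of Idi1 under interleukin and hydrogen peroxide both came from its brightest probe set, and the other gave 0.12 ± 0.14 and -0.22 ± 0.14, neither of which passed. Mvd and Insig2 each had another probe set that rose under interleukin (0.63 and 0.63). Of the 2 other tested probe sets of Fads2, only 1 pointed the same way under interleukin, and 0 passed. The other tested probe set of Fads1 pointed the same way and did not pass.

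**Figure D4:**
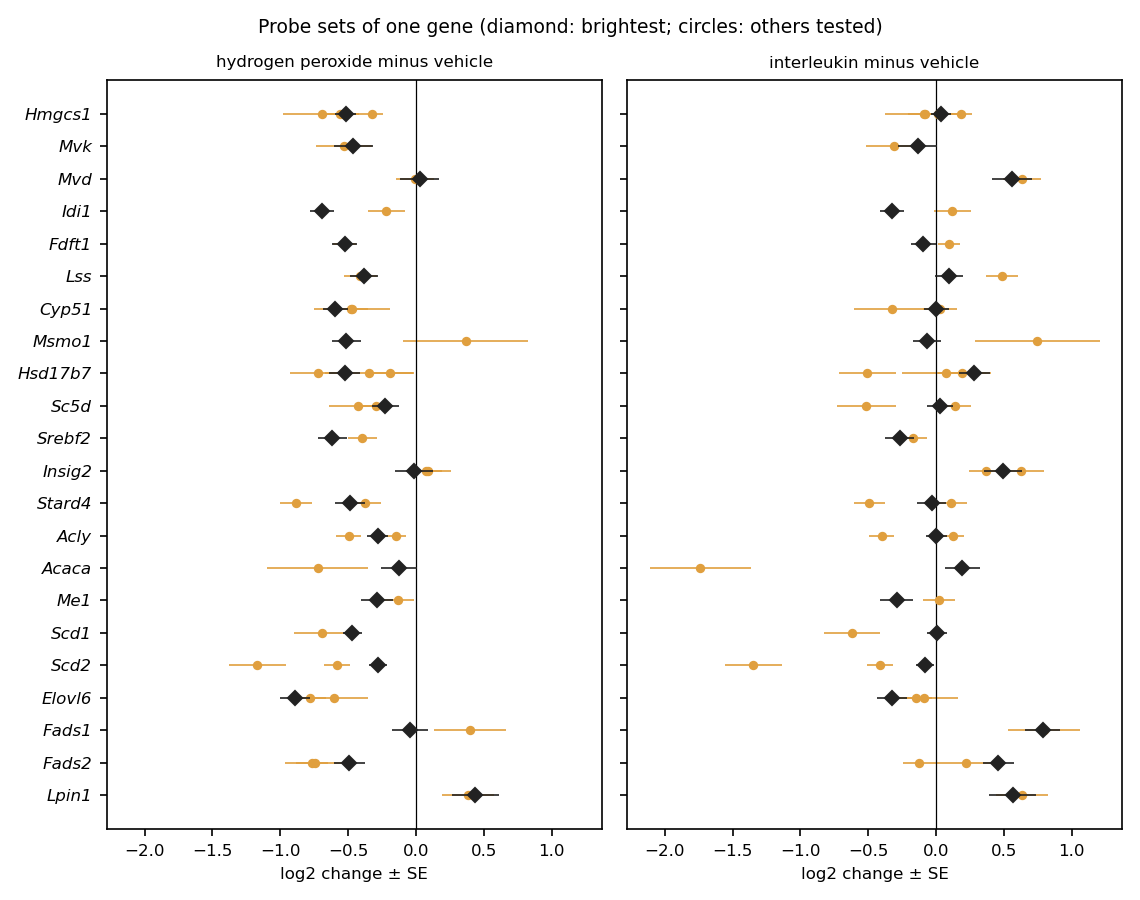
Log2 changes ± SE of every tested probe set of the 22 genes with more than 1, for hydrogen peroxide and for interleukin against vehicle, with the brightest probe set of each gene as a diamond. Under hydrogen peroxide most circles lie on the same side of 0 as the diamond, and under interleukin Acaca, Scd2 and Stard4 have a circle well to the left of it.

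Other lipid genes were counted by role. Of 85 tested, 3 rose and 5 fell under hydrogen peroxide, and 13 rose and 3 fell under interleukin. These are 3.53% and 5.88% under hydrogen peroxide, beside 4.08% and 2.91% of all tested genes. Under interleukin they are 15.3% and 3.53%, beside 9.78% and 6.61%. The 13 that rose include Ch25h, which was tested only because of its interleukin arrays. Among 13 genes that process or degrade the SREBPs, 2 rose under hydrogen peroxide: Erlin1, a membrane protein that binds the complex of SREBPs, Scap and Insig, at 3901 and 3739.8 with vehicle, 6552 and 5816 with hydrogen peroxide, and 5092 and 4655 with interleukin (0.69 ± 0.11, adjusted p = 0.00718), and Mbtps2, the protease that makes the second cut of the SREBPs (0.63 ± 0.14, adjusted p = 0.0246). Under interleukin Mbtps2 rose (0.47 ± 0.14, adjusted p = 0.0398) and Fbxw7, a ubiquitin ligase subunit that turns over nuclear SREBPs, fell (-0.74 ± 0.15, adjusted p = 0.00669). In the isoprenoid branch 0 of 11 genes passed under hydrogen peroxide (3 higher and 0 lower at an unadjusted p under 0.05) and 1 rose under interleukin, Coq2 of ubiquinone synthesis (0.40 ± 0.12, adjusted p = 0.0463). The prenylation enzymes Rabggta (0.51 ± 0.16 under hydrogen peroxide) and Icmt (0.34 ± 0.14 under interleukin) did not pass. Under hydrogen peroxide Mbtps2 did not pass without any 1 of the 4 arrays compared (adjusted p = 0.0931 to 0.15), nor Erlin1 without either vehicle array (0.0595 to 0.0807) or hydrogen peroxide array 1 (0.0710). Under interleukin Coq2 did not pass without any 1 of the 6 arrays (0.0507 to 0.202), Mbtps2 passed only without interleukin array 2 when 1 was left out (0.0513 to 0.192 for the other 5), and Fbxw7 did not pass without vehicle array 2 (0.0665).

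Of 15 tested genes of sterol efflux, storage and oxysterols 5 rose under interleukin (33.3%), beside 9.78% of all tested genes. Under hydrogen peroxide 0 rose (4 higher and 1 lower at an unadjusted p under 0.05), beside 4.08% of all tested genes. None fell under either treatment. Ch25h, which makes 25-hydroxycholesterol, an oxysterol that holds SREBPs back, had 154 and 193 with vehicle, 238 and 127 with hydrogen peroxide, and 1868 and 1392 with interleukin. Both interleukin arrays stood above the other 4. Ch25h counts among the 5 that rose, but it was tested only because of its interleukin arrays: both vehicle arrays lay under 193.7, the signal that a gene's geometric mean over the arrays had to reach, so no size of its change is given. The lysosomal genes Npc2, a cholesterol carrier, and Lipa, an acid lipase, rose by 0.70 ± 0.08 (adjusted p = 0.00036) and 0.86 ± 0.12 (adjusted p = 0.00122). Among 24 other lipogenic genes 6 rose and 1 fell under interleukin, with Fads3, a desaturase relative of Fads1 and Fads2, at 0.91 ± 0.15 (adjusted p = 0.00291) and the citrate carrier Slc25a1 at 0.54 ± 0.10 (adjusted p = 0.00486), and 4 fell under hydrogen peroxide, among them the NADPH source Idh1 (-0.47 ± 0.09, adjusted p = 0.0138). Of 22 genes of fatty acid oxidation 1 rose and 1 fell under hydrogen peroxide. Cpt1a, the carnitine transferase that admits fatty acids to mitochondria, fell at 11847 and 12222 with vehicle, 9152 and 7882 with hydrogen peroxide, and 8996 and 9516 with interleukin (-0.50 ± 0.10, adjusted p = 0.0186, and -0.38 ± 0.10, adjusted p = 0.0286 under interleukin), its relative Cpt1c rose (0.54 ± 0.14, adjusted p = 0.0456), and Hadh did not pass (0.44 ± 0.12). The calls of Npc2, Lipa and Fads3 passed without any 1 array, and that of Slc25a1 did not without vehicle array 1 (adjusted p = 0.0625). Under hydrogen peroxide Cpt1a did not pass without either vehicle array (0.110 to 0.148) or hydrogen peroxide array 2 (0.110), Idh1 without the same arrays (0.0833 to 0.114), and Cpt1c without any 1 of the 4 arrays compared (0.0761 to 0.329). Hadh passed when either interleukin array was left out (0.0419 and 0.0423). Under interleukin Cpt1a did not pass without either vehicle array (0.125 to 0.171) or interleukin array 1 (0.103).

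**Figure D5:**
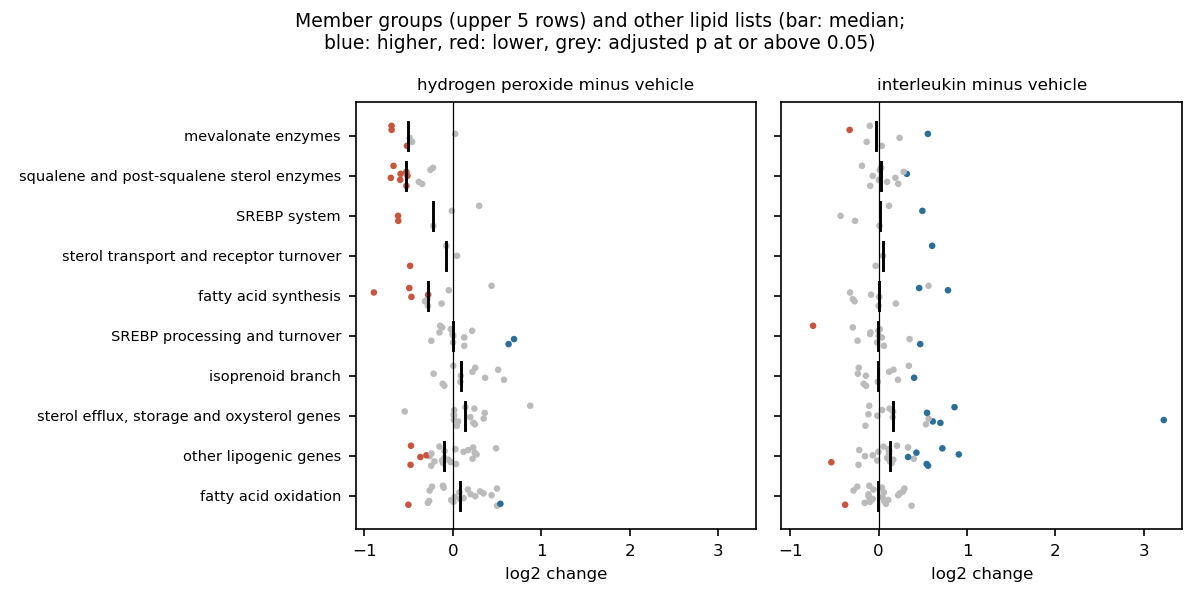
Each point is the log2 change of a gene against vehicle, by list, with the list's median as a bar and colours for an adjusted p under 0.05. The upper 5 rows are the 35 genes of cholesterol and fatty acid synthesis, whose medians lie below 0 under hydrogen peroxide. The rightmost point under interleukin is Ch25h, which was tested only because of its interleukin arrays.

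Markers of other cell types were mostly dim. The summed signal of 11 leukocyte and macrophage markers was 3997 to 4059 with vehicle, 4590.2 to 4764 with hydrogen peroxide and 6698 to 7497 with interleukin; 8 of them lay under the filter, the pan-leukocyte marker Ptprc at 21.3 to 125.7, while Cd14 rose under interleukin and Cd68 under both treatments (1.25 and 1.04). The adipocyte markers, of interest for lipid genes, summed to 273 to 341 with vehicle, 334 to 444 with hydrogen peroxide and 388 to 416 with interleukin, 4 of 5 were under the filter, and Adipoq lay at 12.0 to 79.9. Epithelial and tubule markers (9 of 11 under the filter) summed to 1299.8 to 1683 over all arrays. Endothelial markers (7 of 10 under it) summed to 9526 to 17408, nearly all of it Kdr, which fell under interleukin (-0.60). Of the renin cell and pericyte list Pdgfrb, Acta2 and Tagln rose under interleukin (0.56, 0.99 and 1.56) and Foxd1 fell under both treatments (-0.98 with hydrogen peroxide and -0.60 with interleukin). Under interleukin Cspg4 was at -0.63 and Nes at 0.10, and neither passed. With hydrogen peroxide Tagln was at 0.92, Acta2 at 0.62, Nes at 0.53, Cspg4 at 0.04 and Pdgfrb at -0.27, and none of them passed. Gja5, Rgs5, Des and Mcam lay under the filter. Mcam had 204.2 and 203.8 with vehicle, 387.7 and 345.8 with hydrogen peroxide, and 130.9 and 45.8 with interleukin. Des had 114.3 and 112.9 with vehicle, 200.8 and 378.5 with hydrogen peroxide, and 61.9 and 136.2 with interleukin. The list's sum was 19397 to 20089.5 with vehicle, 21190.1 to 21239.9 with hydrogen peroxide and 26813 to 34161 with interleukin. Without 1 array, Cd68 under hydrogen peroxide lost its call for each of the 4 arrays compared (adjusted p = 0.117 to 0.209), and under interleukin for vehicle array 1 (0.0696) and interleukin array 1 (0.0567). Kdr lost its fall without vehicle array 2 (0.16) or interleukin array 1 (0.0983), Tagln its rise without the same arrays (0.0794 and 0.0730), and Foxd1 its fall under hydrogen peroxide without vehicle array 1 (0.0841) or hydrogen peroxide array 1 (0.0527) and under interleukin without any 1 of the 4 arrays compared (0.0551 to 0.204). The lowest signal of any probe set on an array was 0.2 to 0.5, so a signal above 0 does not show that a marker was expressed. The part of the markers in the results was not tested.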

How the data were processed

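RNA of 2 separate cultures per group, as the series' design text states, was hybridised to 1 array each. The deposited values are MAS5 signals per probe set that the authors computed from each scanned array (a linear intensity), per the submitters' processing notes, which name no version. Signals were log2 transformed with no pseudocount, 64 controls were left out, and the 22519 of 45037 probe sets with a mean log2 signal at or above the median (a geometric mean signal of 193.7) were tested. Of the 45037 probe sets 34945 had 1 symbol in the array annotation, 932 several and 9160 none, and 34741 of those with 1 symbol were matched to a RefSeq gene table. A gene is represented by its tested probe set of highest mean log2 signal.

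The comparisons used limma 3.58.1 under R 4.3.3: 1 lmFit model of the 6 arrays, then eBayes with the prior variance following signal, the trend (Benjamini-Hochberg adjustment over tested probe sets, threshold 0.05). Replicate numbers are shared between groups in the labels but are not said to mark anything in common, so no block was used. The genes and lists were chosen with earlier results of these data known. Besides them, up to 3 genes of smallest p from each other lipid list are named. Promoter sequences come from a RefSeq table. The steps were tested on simulated data. Alternatives are listed in the closing section; neither detection calls nor scanner images were used.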

Additional observations from a re-analysis of the deposited data

How the results depend on the processing

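Alternatives were quantile normalization, 75th percentile centring, adding 32 to each signal, testing all probe sets or only those with a geometric mean signal of at least 1514, no trend in the variance, a fit of the 4 arrays compared, a replicate block, omitting each array in turn, omitting probe sets marked as matching several transcripts, and 1 probe set per gene. Counts of called genes are given for the 35 genes first and then for all tested genes. With no filter they were 3 and 1364 under interleukin, 11 and 463 under hydrogen peroxide, and 15 and 863 between the treatments. With no trend they were 1 and 886 under interleukin, 0 and 34 under hydrogen peroxide, and 4 and 429 between the treatments. With 1 probe set per gene 1270 of all genes were called under hydrogen peroxide. Quantile normalization, 75th percentile centring, adding 32 and the stricter filter called 7, 7, 7 and 8 of the 35 genes under interleukin. Under hydrogen peroxide they called 18, 20, 17 and 20, and between the treatments 20, 21, 21 and 21. Fits of the 4 arrays compared called 6, 20 and 16 of the 35 in the same order of comparisons. Leaving out 1 array gave 1 to 7 and 786 to 1668 under interleukin, 4 to 21 and 132 to 1032 under hydrogen peroxide, and 10 to 17 and 502 to 1001 between the treatments; each gene's brightest probe set was chosen again. All genes called under hydrogen peroxide numbered 444 higher and 317 lower, and 390 and 431 with 75th percentile centring.

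Deviations of same-numbered arrays correlated at 0.11 (vehicle and hydrogen peroxide), 0.05 (vehicle and interleukin) and -0.13 (both treatments). A pairing of the arrays by number was not shown by these values, and they cannot exclude one. The replicate block gave 5, 17 and 17 of the 35 genes in place of 7, 17 and 19, and 1658, 689 and 1017 of all genes in place of 1785, 761 and 1128. A block with the numbers of the treated arrays crossed, chosen after seeing the data, was fitted to those 4 arrays only. It called 22 and 1694 between the treatments, beside 16 and 896 for the same 4 arrays with no block. Omitting probe sets marked as matching several transcripts turned Msmo1 under hydrogen peroxide to 0.37 (adjusted p = 0.697), because only its dim probe set was left. Of the calls, 1 of 7 under interleukin (Fads1), 0 of 17 under hydrogen peroxide and 3 of 19 between the treatments (Fads2, Nsdhl and Tm7sf2) passed in all 16 other analyses but the crossed one. Under hydrogen peroxide 0 of the 35 genes rose in any of them. With 2 arrays per group, leaving out 1 of a compared group leaves a lone array, assumed to vary like the other groups.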
